A study of Homo sapiens with 6 samples.

Results

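The genes described here are the nuclear-encoded subunits and assembly factors of respiratory complex I. They are the rows of the count table whose symbol begins with NDUFA, NDUFAB, NDUFAF, NDUFB, NDUFC, NDUFS or NDUFV and ends in a number. The rule found 46 of 61860 rows, 38 named as subunits and 8 as assembly factors (NDUFAF), and all 46 passed the filter on low counts. The libraries were made from 786-O, a long-established human line derived from a clear cell renal carcinoma. One group of 3 libraries stably expressed a control shRNA and the other group of 3 an shRNA against METTL3, the methyltransferase that places N6-methyladenosine on mRNA. The columns of the second group carry only a number that no label explains and were assigned to it because no other group remained. The labels do not say whether replicate libraries were grown separately or are clones, so each p-value reflects library-to-library spread that may be technical.

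Complex I, NADH:ubiquinone oxidoreductase, is the entry point of electrons from NADH into the respiratory chain of the inner mitochondrial membrane. Its matrix arm binds NADH and passes electrons along iron-sulfur clusters to ubiquinone, and its membrane arm pumps protons. Some hydrophobic subunits are encoded by mitochondrial DNA, whereas the rest are made in the cytosol and joined to them with the help of assembly factors. Clear cell renal carcinoma is known for low respiratory activity, and hypoxia-inducible factor signalling is active in 786-O cells because VHL is lost.

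Total counts ran from 100534896 to 103624456 per library and the lowest count of any member in a library was 434 (NDUFAF5, knockdown B). METTL3 stood at 37.2, 38.1 and 37.6 CPM in libraries A, B and C of the control group and at 11.3, 9.84 and 11.4 CPM in the same order in the knockdown group. CPM is the count relative to the library total, scaled by TMM, a normalization on the bulk of the genes. METTL3 was lower in every knockdown library (log2 fold change −1.80, SE 0.08, edgeR adjusted p = 1.45e-07), although its exons overlap those of TOX4 on the opposite strand. Of 12 markers of a renal epithelial tumour line, 10 reached an average of 1 CPM, among them PAX8, PAX2, KRT8 and KRT18, and the epithelial markers CDH1 and EPCAM did not. The 12 summed to 1906 to 2415 CPM in control and to 3024 to 4121 CPM in knockdown. Most of that sum was VIM, at 1648, 1536 and 1198 CPM in control and 3330.2, 3287 and 2262 CPM in knockdown. Of the 11 tested, 3 rose (27.3%, against 16.5% of all genes), VIM included, and KRT19 fell (9.09%, against 16.9%). KRT8 (0.01) and KRT18 (−0.05) did not pass. A pair of neuronal markers summed to 37.7 to 41.8 and 56.5 to 63.1 CPM, most of it from RBFOX3. The 4 fibroblast markers summed to 1.71 to 2.4 CPM in control and 1.2 to 1.42 CPM in knockdown, and the part of these markers in the results was not tested. Leukocyte, endothelial and erythroid markers each summed to at most 0.318 CPM in any library. In knockdown library B the members read lower than in the other knockdown libraries, as set out below, and results are given with and without it.

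Complex I genes are known targets of a few transcription factors, and the start regions of the members show matches to some of them. RefSeq promoters (GRCh38.p14, 250 bases before to 50 after the start) were found for 39 of the 46 members and were searched on both strands for 4 strings. The palindromic site of nuclear respiratory factor 1 (NRF1), whose letters are the capitals in the first 3 sequences below, lay in 3 member promoters (7.69%) and in 1.24% of all 35116 promoters. AAGATGGC, a form of the YY1 site, lay in 6 (15.4% against 2.89%). In these 6 it began 10 to 25 bases after the start and held ATG, the letters of a start codon. A YY1 site and the start of the coding sequence were not told apart. CCGGAAGT, a site of ETS factors such as GABP, lay in 2 (5.13% against 4.14%), and TCAAGGTCA, the site of estrogen-related receptors, lay in 0 (0.353% of all promoters). The stretches below show members with the NRF1 string, of which 3 of 3 were lower in knockdown, and members with the YY1 string, of which 3 of 6 were. Of the 2 members with the CCGGAAGT string 0 were lower, and of the 39 members with a promoter 19 were lower. Without knockdown library B, 0 of the 3 members with the NRF1 string and 11 of the 39 were lower. They read 5′ to 3′ on the strand of the gene with the matched string in capitals, and no string overlaps another. NDUFA8 (chr9:122159760-122159843, minus strand), NDUFAF5 (chr20:13784964-13785047, plus strand) and NDUFB4 (chr3:120596117-120596246, plus strand) hold the NRF1 string.
NDUFA8: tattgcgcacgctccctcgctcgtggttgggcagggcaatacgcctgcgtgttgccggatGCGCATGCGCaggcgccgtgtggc
NDUFAF5: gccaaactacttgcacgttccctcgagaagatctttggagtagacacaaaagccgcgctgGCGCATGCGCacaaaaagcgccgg
NDUFB4: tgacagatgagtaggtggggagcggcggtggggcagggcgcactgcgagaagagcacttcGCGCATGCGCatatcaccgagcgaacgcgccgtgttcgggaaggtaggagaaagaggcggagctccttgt
In NDUFA8 and NDUFAF5 the string began at −4 relative to the annotated start, and in NDUFB4 at −159.

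The YY1 string is shown for NDUFA9 (chr12:4649064-4649133, plus strand) and NDUFS7 (chr19:1383864-1383931, plus strand), which were lower in knockdown. It is shown also for NDUFA7 (chr19:8321354-8321421, minus strand) and NDUFS4 (chr5:53560600-53560667, plus strand), which were not.
NDUFA9: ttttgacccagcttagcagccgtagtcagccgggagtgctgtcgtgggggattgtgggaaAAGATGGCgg
NDUFS7: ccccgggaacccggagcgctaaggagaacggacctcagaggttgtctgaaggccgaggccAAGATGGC
NDUFA7: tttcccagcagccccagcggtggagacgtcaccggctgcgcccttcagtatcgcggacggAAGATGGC
NDUFS4: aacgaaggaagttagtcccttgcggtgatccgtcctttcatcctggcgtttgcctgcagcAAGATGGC
The string began 10 to 21 bases after the start in these genes. A match describes the letters only, and binding was not measured.

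Subunit genes were lower in the METTL3 knockdown libraries more often than higher. Of the 38 subunit genes, 19 fell, 1 rose and 18 did not pass the threshold (quasi-likelihood test of edgeR, with p-values adjusted by Benjamini-Hochberg over all 18740 genes tested and a threshold of 0.05). That is 50% lower, where 16.9% of all genes tested were lower, and 2.63% higher, where 16.5% of all genes were higher. The median log2 fold change of the subunits was −0.23, against −0.003 for all genes, and the subunit values ran from −0.59 to 0.34. Of the 8 assembly factors, 3 fell, 0 rose and 5 did not pass, with a median of −0.12. For 20 subunits and 3 assembly factors every knockdown library lay below every control library, as was so for 23.9% of all genes. The reverse held for 0 subunits and for 1 assembly factor, NDUFAF6, and for 23.4% of all genes. In bulk RNA, fewer cells that express a gene and less RNA in each cell cannot be told apart. The largest fall was that of NDUFAF1, by 38.7%, and the other members that fell did so by 15.2% to 33.5%. One of the 38, NDUFA4, is now assigned to complex IV (cytochrome c oxidase) despite its name, and without it 18 of 37 subunits fell, with a median of −0.22.

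**Figure D1:**
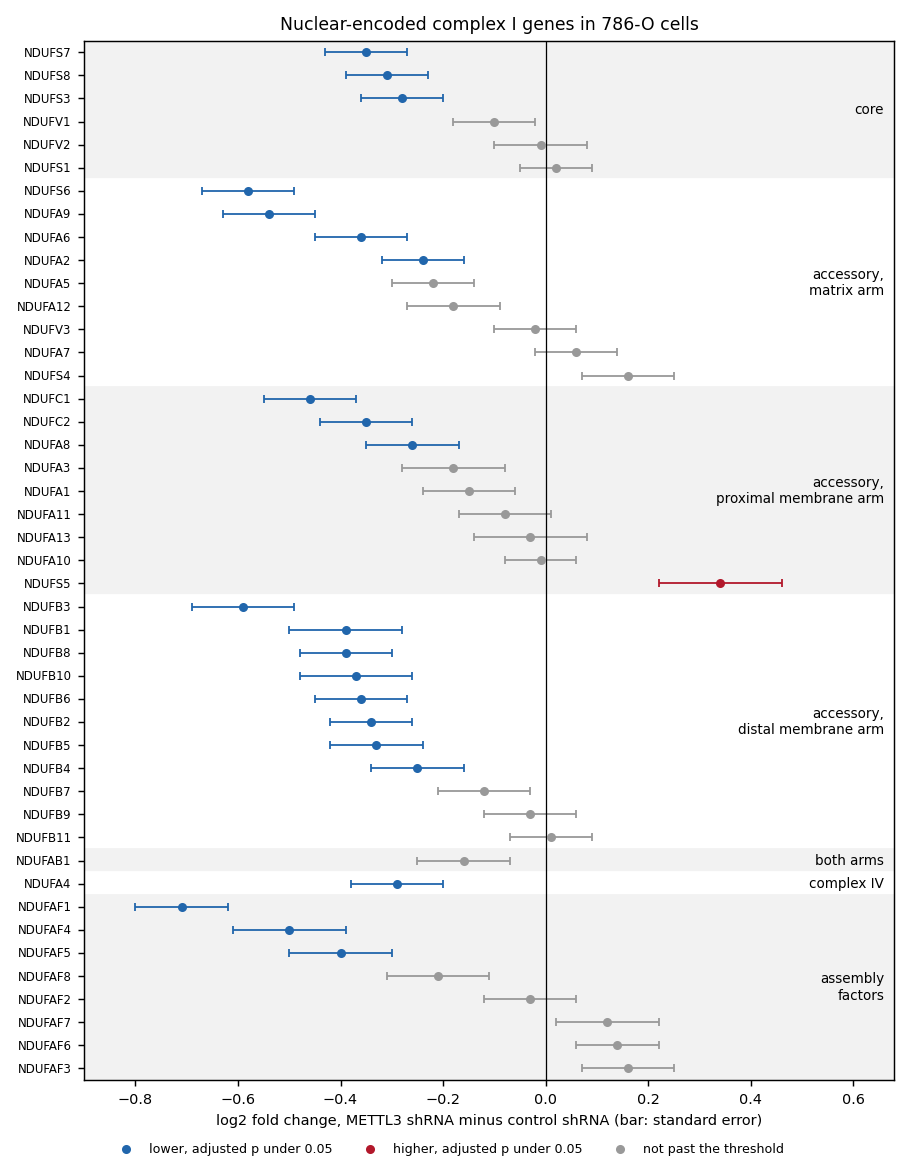
Log2 fold change of 45 of the 46 genes between METTL3 shRNA and control shRNA libraries (x axis), with bars for the standard error and 3 libraries per group, grouped by place in the complex. Blue points are the 22 genes that fell, the red point is NDUFS5, the only gene that rose, and grey points did not pass.

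Knockdown library B carried part of these calls. It was the lowest of the 3 knockdown libraries for 34 of 46 members (73.9%), whereas it was lowest for 31.8% of all genes tested, and knockdown A was lowest for 1 member. The median of log2(CPM over the control mean) across the 37 complex I subunits was −0.09 in knockdown A, −0.36 in B and −0.21 in C, and between −0.02 and 0.02 in the control libraries. Without knockdown B, 9 of 38 subunits fell (23.7%, against 10.2% of all genes in that fit), 0 rose, and the median was −0.16. The 9 were NDUFA6, NDUFA9, NDUFB2, NDUFB3, NDUFB8, NDUFC1, NDUFS6, NDUFS7 and NDUFS8. They and NDUFAF1 passed in each of the 17 alternative fits listed under the processing, so they are described first within each group. The 11 members that lost their call without knockdown B kept their direction (−0.37 to −0.17, edgeR adjusted p from 0.0546 to 0.21). Without control B, 11 subunits fell (28.9%, against 12.2% of all genes) and 0 rose.

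**Figure D2:**
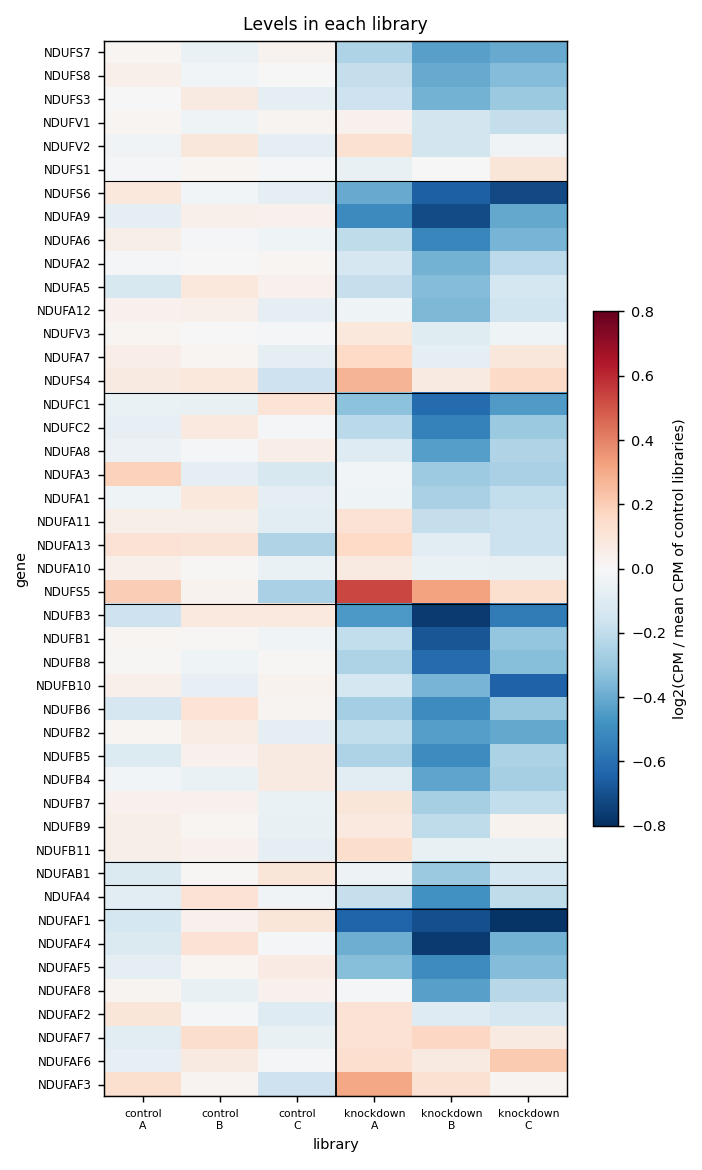
Level of the same 45 genes in each of the 6 libraries (columns) as log2 of its CPM over the mean of the control libraries, where blue is lower and red is higher. Horizontal lines separate, from the top, core subunits, accessory subunits of the matrix arm, of the proximal and of the distal membrane arm, NDUFAB1, NDUFA4 and assembly factors. The column of knockdown B is the deepest blue for most genes, and knockdown A the palest.

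The core subunits that fell, NDUFS7, NDUFS8 and NDUFS3, belong to the quinone end of the matrix arm. Of the 7 nuclear-encoded core subunits 3 fell (42.9%, against 16.9% of all genes) and 4 did not pass the threshold (median −0.10). The subunits of the NADH-oxidizing tip were among these 4. NDUFS7, which carries the cluster that hands electrons to ubiquinone, stood at 108, 103 and 109 CPM in control A, B and C and at 90.2, 79.1 and 80.8 CPM in knockdown A, B and C. The groups did not overlap, and NDUFS7 fell by 21.7% (log2 fold change −0.35, SE 0.08, edgeR adjusted p = 0.004). NDUFS8, which carries another pair of clusters, went from 139.7, 134 and 136 CPM to 119, 103 and 107 CPM (−0.31, SE 0.08, edgeR adjusted p = 0.0082). NDUFS3, a subunit at the quinone end of the matrix arm, went from 33.2, 34.9 and 31.4 to 29.6, 25.5 and 27.0 CPM (−0.28, SE 0.08, edgeR adjusted p = 0.0197), a call that was lost without knockdown B, control A or control B (edgeR adjusted p up to 0.0982). The subunits of the NADH-oxidizing tip gave values close to 0. NDUFV1, which binds NADH and flavin, stood at −0.10 (SE 0.08), NDUFV2 at −0.01 (SE 0.09) and NDUFS1, the largest subunit, at 0.02 (SE 0.07). The difference between the quinone and NADH parts of the core was not tested. Without knockdown B, 2 of the 7 fell, NDUFS7 and NDUFS8, where 10.2% of all genes did.

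Among the 9 accessory subunits of the matrix arm, 4 fell (44.4%, against 16.9% of all genes) and 0 rose (against 16.5%), with a median of −0.22. NDUFS6, a zinc-binding subunit added late in assembly, stood at 88.0, 81.7 and 78.9 CPM in the control libraries and at 62.8, 52.7 and 50.2 CPM in the knockdown libraries. All knockdown values lay below all control values, and NDUFS6 fell by 33.3% (−0.58, SE 0.09, edgeR adjusted p = 0.000502). The gene lies on chromosome 5, 1801400 to 1816605 in GRCh38, and its exons overlap no other gene. NDUFA9, a subunit at the junction of the arms, went from 42.7, 46.3 and 46.2 to 31.7, 27.5 and 33.9 CPM (−0.54, SE 0.09, edgeR adjusted p = 0.000631). NDUFA6, of the LYR protein family, went from 100.3, 95.8 and 94.9 to 84.3, 67.5 and 75.0 CPM (−0.36, SE 0.09, edgeR adjusted p = 0.00665). For both, knockdown B was the lowest library. NDUFA2, the other that fell, went from 51.7, 52.4 and 52.8 to 47.6, 40.3 and 45.3 CPM (−0.24, SE 0.08), without overlap, and its call was lost without knockdown B or any 1 control library. NDUFA5 had groups that did not overlap but missed the threshold (−0.22, SE 0.08, edgeR adjusted p = 0.059). NDUFA12 (−0.18), NDUFV3 (−0.02), NDUFA7 (0.06) and NDUFS4 (0.16) did not pass. NDUFS4, whose mutation is a known cause of Leigh syndrome, read 22.5, 22.7 and 19.1 CPM in control and 25.8, 22.5 and 23.8 CPM in knockdown, and the groups overlapped.

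The proximal membrane arm held the member that rose. Of its 9 accessory subunits 3 fell (33.3%, against 16.9% of all genes) and 1 rose (11.1%, against 16.5% of all genes), with a median of −0.15. NDUFC1, a small membrane subunit, went from 56.6, 56.4 and 63.3 CPM to 46.8, 38.3 and 42.8 CPM, with no overlap (−0.46, SE 0.09, edgeR adjusted p = 0.00173). Its partner NDUFC2 went from 74.7, 82.5 and 77.6 to 67.4, 53.8 and 63.6 CPM (−0.35, SE 0.09, edgeR adjusted p = 0.0098). NDUFA8, one of the subunits with twin cysteine motifs of the intermembrane space, went from 53.7, 54.8 and 57.6 to 51.5, 40.9 and 46.8 CPM (−0.26, SE 0.09, edgeR adjusted p = 0.0391). The groups did not overlap for either gene. NDUFC2 lost its call without knockdown B or control B, and NDUFA8 without any 1 library other than knockdown A. The exons of NDUFC2 overlap those of the read-through gene NDUFC2-KCTD14, which had 37 to 96 counts per library against 5232 to 8794 for NDUFC2.

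NDUFS5, another subunit of the intermembrane space, stood at 44.8, 39.8 and 32.6 CPM in control and at 56.6, 48.8 and 42.7 CPM in knockdown A, B and C. Control A was higher than knockdown C, so the groups overlapped, and the log2 fold change was 0.34 (SE 0.12, edgeR adjusted p = 0.0431). The direction held in all 17 alternatives, but the call in only 9 of them. Without control C NDUFS5 stood at 0.22 (edgeR adjusted p = 0.17), without knockdown A at 0.22 (0.197), without control B at 0.35 (0.0957), without knockdown B at 0.35 (0.101), and with library size scaling or FPKM values it did not pass either. NDUFA3 (−0.18), NDUFA1 (−0.15), NDUFA11 (−0.08), NDUFA13 (−0.03) and NDUFA10 (−0.01) did not pass.

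The distal membrane arm, built from the NDUFB subunits around the proton-pumping subunits ND4 and ND5, had 8 of 11 genes that fell and 0 that rose, with a median of −0.34. That is 72.7% lower, where 16.9% of all genes were lower and 16.5% higher. The difference between the arms was not tested. Without knockdown B 3 of these 11 and 3 of the 9 matrix arm accessory genes fell, where 10.2% of all genes did. NDUFB3 went from 37.6, 44.4 and 44.5 CPM to 30.6, 24.8 and 28.6 CPM, with no overlap (−0.59, SE 0.10, edgeR adjusted p = 0.000631). It was the largest fall among the subunits. NDUFB8, often used as the protein marker of assembled complex I, went from 127, 123 and 127 to 106, 82.1 and 99.6 CPM (−0.39, SE 0.09, edgeR adjusted p = 0.00558). NDUFB2 went from 54.2, 55.9 and 50.9 to 46.9, 39.5 and 40.4 CPM (−0.34, SE 0.08, edgeR adjusted p = 0.00725). In these genes too knockdown B was lowest. The other 5 that fell, all small accessory subunits, lost the call without knockdown B. NDUFB1 went from 17.2, 17.1 and 16.7 to 14.8, 10.6 and 13.7 CPM (−0.39, SE 0.11). NDUFB6 went from 18.2, 21.6 and 20.3 to 16.6, 14.1 and 16.2 CPM (−0.36, SE 0.09), and NDUFB5 from 58.0, 64.0 and 65.7 to 52.7, 44.2 and 52.6 CPM (−0.33, SE 0.09). In these genes knockdown B was again the lowest library, and the groups did not overlap. In NDUFB10, by contrast, knockdown C was lowest, with 54.1, 50.2 and 53.6 CPM in control and 47.7, 40.6 and 33.6 CPM in knockdown (−0.37, SE 0.11). NDUFB4, which had the highest level per length (FPKM) of the members that fell, went from 186, 182 and 199 to 178, 141 and 157 CPM (−0.25, SE 0.09), where knockdown A lay just under the controls. Without control B 5 of 11 fell, where 12.2% of all genes did. The members of this arm that did not pass were NDUFB7 (−0.12), NDUFB9 (−0.03) and NDUFB11 (0.01). NDUFB9 read 228, 223 and 212 CPM in control and 233, 192 and 225 CPM in knockdown, and the groups overlapped.

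NDUFAB1, the mitochondrial acyl carrier protein, is present in both arms and also serves fatty acid synthesis in mitochondria. It did not pass (−0.16, SE 0.09, edgeR adjusted p = 0.187). NDUFA4 went from 99.6, 115 and 104 to 93.2, 75.9 and 92.2 CPM (−0.29, SE 0.09, edgeR adjusted p = 0.0296), a call lost without knockdown B, control B or control C. Its paralog NDUFA4L2, a target of hypoxia-inducible factors that is abundant in many clear cell renal tumours, was low here, with 125 to 148 counts per library, at 1.14 to 1.23 CPM in control and 1.31 to 1.57 CPM in knockdown (0.23, SE 0.16, edgeR adjusted p = 0.302).

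The assembly factors divided into 3 that fell and 5 that did not pass. NDUFAF1 belongs to the membrane-bound assembly complex that builds the part around ND2. It stood at 11.7, 13.2 and 13.8 CPM in control A, B and C and at 8.27, 7.94 and 7.5 CPM in knockdown A, B and C, with 752 to 1522 counts per library. The knockdown libraries lay close together below all controls (−0.71, SE 0.09, edgeR adjusted p = 0.000201). NDUFAF1 lies on chromosome 15, 41387349 to 41402519 in GRCh38, and its exons overlap no other gene. NDUFAF4, which acts with NDUFAF3 on the quinone module, went from 15.2, 17.9 and 16.4 to 12.6, 9.69 and 12.7 CPM (−0.50, SE 0.11, edgeR adjusted p = 0.00373). NDUFAF5, which hydroxylates an arginine of NDUFS7, went from 6.00, 6.40 and 6.63 to 5.00, 4.47 and 4.98 CPM (−0.40, SE 0.10, edgeR adjusted p = 0.0108), a call lost without knockdown B.

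The other 5 factors named NDUFAF did not pass the threshold. NDUFAF3 read 58.3, 54.2 and 47.6 CPM in control and 66.1, 58.0 and 54.1 CPM in knockdown (0.16, SE 0.09), so that NDUFAF3 and NDUFAF4 had values of opposite sign. NDUFAF8, which stabilizes NDUFAF5, read 75.4, 71.3 and 75.9 CPM in control and 73.7, 55.0 and 63.7 CPM in knockdown (−0.21, SE 0.10, edgeR adjusted p = 0.109). Its groups overlapped, and it passed only without knockdown A (−0.33, edgeR adjusted p = 0.0175) among the fits that left out 1 library. NDUFAF2, a relative of NDUFA12 that holds its place during assembly, read 20.3, 18.9 and 17.7 CPM in control and 20.6, 17.7 and 17.3 CPM in knockdown (−0.03, SE 0.09). NDUFAF7, a methyltransferase, read 7.21, 8.45 and 7.36 against 8.31, 8.59 and 8.06 CPM (0.12, SE 0.10). NDUFAF6, needed early in assembly, read 21.5, 23.7 and 22.3 against 24.7, 23.7 and 26.0 CPM (0.14, SE 0.08). The knockdown libraries of NDUFAF6 did not fall below the controls on the CPM scale, but NDUFAF6 and NDUFAF7 had values below 0 in the fits on FPKM (−0.16 to −0.10) and passed in no fit.

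Of the 15 other complex I assembly factors, whose names do not begin with NDUF, 2 fell, 1 rose and 12 did not pass (median 0.06). These are 13.3% lower and 6.67% higher, under the 16.9% and 16.5% of all genes. TIMMDC1, a membrane protein of the early membrane arm, went from 92.2, 94.8 and 107 to 81.0, 67.4 and 72.6 CPM (−0.41, SE 0.09, edgeR adjusted p = 0.00352). AIFM1, which works with CHCHD4 in the import of subunits, went from 46.5, 44.9 and 50.9 to 36.9, 34.4 and 37.3 CPM (−0.39, SE 0.08, edgeR adjusted p = 0.00237). ACAD9, a member of the same membrane assembly complex as NDUFAF1, was the gene that rose, from 25.9, 23.4 and 17.2 to 31.8, 34.1 and 28.3 CPM (0.50, SE 0.13, edgeR adjusted p = 0.00855). ACAD9 did not pass with FPKM values (0.31 at the lowest). ECSIT (0.10) and TMEM126B (−0.12), further members of that complex, did not pass.

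Subunits of the same complex encoded by mitochondrial DNA had values of the opposite sign. All 7 MT-ND genes rose, with log2 fold changes from 0.76 (MT-ND4L) to 1.37 (MT-ND6) and a median of 1.11, and they rose in each of the 16 alternatives that kept these genes. Mitochondrially encoded mRNA as a whole, these genes included, made up 3.37%, 3.16% and 3.00% of counts in control A, B and C and 5.94%, 5.78% and 6.53% in knockdown A, B and C. MT-ND2, for example, went from 2297, 2131 and 2181 to 5524, 4385 and 5725 CPM. Per length, on the scale of the deposited FPKM, the 7 genes summed to 21197 to 23315 in the control libraries and to 38694 to 47399 in the knockdown libraries. The 37 nuclear-encoded subunits summed to 7088 to 7221 FPKM in control and to 6212, 5206 and 5734 FPKM in knockdown A, B and C. The ratio of the mitochondrial to the nuclear sum was 3.29, 3.01 and 2.97 in control A, B and C and 6.77, 7.43 and 8.27 in knockdown A, B and C, with no overlap. When the mitochondrially encoded genes were left out before scaling, a fit added after the data were seen, 19 nuclear subunits were lower and 1 was higher. Of all genes in that fit 17.0% were lower.

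**Figure D3:**
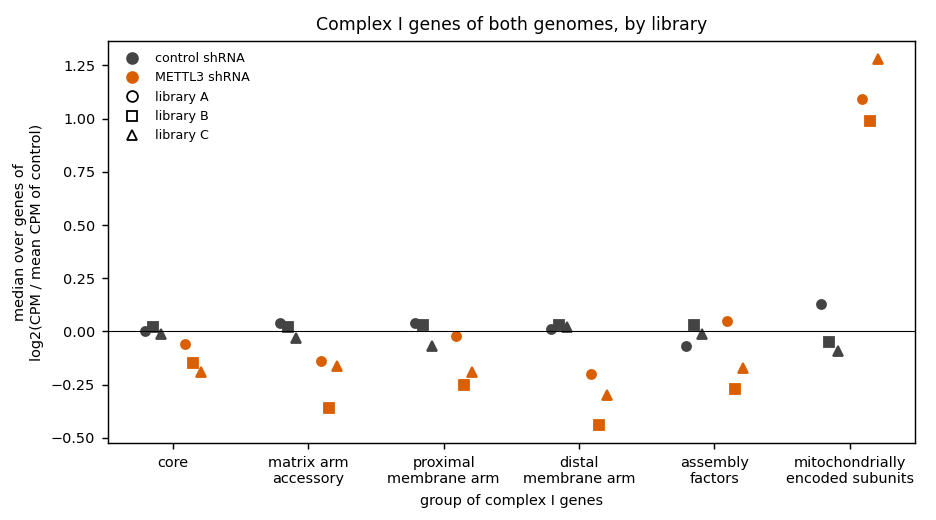
Median over the genes of each group of log2(CPM over the mean of the control libraries), y axis, in the 3 control (grey) and 3 METTL3 shRNA (orange) libraries, with a marker shape for each library letter. Mitochondrially encoded subunits sit near 1 or above in knockdown, while the distal membrane arm lies lowest, at −0.20, −0.44 and −0.30 in knockdown A, B and C.

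The nuclear-encoded subunits of complexes II to V gave similar counts. Of 46 genes listed 41 were tested, with a median of −0.20. Of these, 15 fell (36.6%, against 16.9% of all genes), 1 rose (2.44%, against 16.5%) and 25 did not pass. Without knockdown B 9 fell, where 10.2% of all genes did, and with library size scaling 29, where 25.2% did. COX7B of complex IV had the largest fall (−0.55, SE 0.10) and ATP5MC2, a gene for the ring subunit of ATP synthase, was the one that rose (0.39, SE 0.09). The difference between complex I and this list was not tested.

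Regulators known to drive respiratory genes of the nuclear or the mitochondrial genome were mostly lower. Of 9 genes 6 fell (66.7%, against 16.9% of all genes tested), 0 rose (against 16.5%) and 3 did not pass (median −0.22). The coactivators PPARGC1A (−0.60, SE 0.16) and PPARGC1B (−0.47, SE 0.11) fell, as did their partner ESRRA (−0.40, SE 0.08), TFAM, the factor that packages and transcribes mitochondrial DNA (−0.35, SE 0.09), GABPB1 (−0.22, SE 0.08) and YY1 (−0.22, SE 0.07). PPARGC1A stood at 6.94, 6.92 and 9.32 CPM in control and at 4.18, 4.61 and 6.5 CPM in knockdown. Only 3 of the 9 passed without control C, knockdown A or knockdown B, where 12.1%, 13.1% and 10.2% of all genes were lower. ESRRA and TFAM passed in every alternative. NRF1 did not pass (0.07, SE 0.08), nor did GABPA (−0.19) or PPRC1 (−0.15).

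Levels per length spanned a wide range, also among the subunits, most of which the complex holds in equal number. On the deposited FPKM scale the control means ran from 5.13 ± 0.534 for NDUFAF7, an assembly factor, to 536 ± 10.1 for NDUFB9 (SD, n = 3 each). Among the subunits they began at 15.6 ± 0.674 (NDUFV3). NDUFB7 was at the same level as NDUFB9 (536 ± 8.77), followed by NDUFB4 (513 ± 32.8), NDUFA11 (470 ± 20.5) and NDUFS6 (359 ± 13). NDUFB9, NDUFB7 and NDUFB4 do not differ beyond their spread. The lowest subunits were NDUFV3 (15.6 ± 0.674), NDUFB6 (24.6 ± 2.65) and NDUFS1 (25.9 ± 0.98), and the last pair do not differ beyond their spread either. The order between genes depends on the transcript length that the authors used, which was not given in the sources used here.

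The reference transcripts of the members were short, with a median of 1015 bases (528 to 11819) against 3105 for tested protein-coding genes, and had a median of 4 exons against 9. Members shorter than 1000 bases fell in 9 of 23 cases (median −0.18) and longer ones in 13 of 23 (median −0.33). Among all tested protein-coding genes under 1000 bases 19.4% were lower (median −0.06, n = 749), and among longer ones 20.6% (median −0.03, n = 13196). The difference between short and long members was not tested. The reference was the longest transcript of the best annotation class, which need not be the form expressed. NDUFB2 (1666 bases) and NDUFB10 (705 bases) had control means of 53.7 and 52.6 CPM but 265 and 139.9 FPKM. The lengths behind the deposited FPKM therefore differ from those used here, and the values by length, GC content and GGACT describe the reference transcripts only. Across the 46 members the log2 fold change had a Pearson r of −0.05 with log2 transcript length, 0.18 with GC content, −0.03 with log2 mean FPKM and 0.21 with the density of GGACT, a common form of the N6-methyladenosine motif. These are descriptions across genes that share libraries, and the same r with GGACT was 0.0 over 13945 protein-coding genes.

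Several members share a start region with a gene on the opposite strand. A protein-coding gene began within 1000 bases upstream of the start, or with starts overlapping by up to 100 bases, for 14 of 46 members, and 12 of these partners were tested. This look at neighbours was added after the data were seen. Of the 5 pairs whose complex I member fell, the partner fell in 4, and of the 7 pairs whose member did not pass, it fell in 2 (CEBPZ with NDUFAF7 and TEPSIN with NDUFAF8), where 16.9% of all genes were lower. Without knockdown B both genes fell in 0 pairs. NDUFB5 (−0.33) is paired with MRPL47, a mitochondrial ribosomal protein gene (−0.57, SE 0.09), and NDUFS6 (−0.58) with MRPL36, another (−0.23, SE 0.08). NDUFB1 (−0.39) is paired with CPSF2 (−0.29, SE 0.08) and NDUFAF5 (−0.40) with ESF1 (−0.23, SE 0.08), whereas AKAP3, the partner of NDUFA9, did not pass (−0.07, SE 0.21). MRPL36, CPSF2 and ESF1 lost their calls without knockdown B, and MRPL47 kept its call in every alternative.

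Overlapping annotation and pseudogenes touch some of these counts. The exons of 25 of the 46 members overlap those of another gene, 20 of them opposite in strand. Strand-specific counting was neither stated nor tested. Members without such an overlap fell in 10 of 21 cases (median −0.22) and members with one in 12 of 25 (median −0.18). NDUFA9, NDUFA6, NDUFB2, NDUFB3, NDUFB8, NDUFC1, NDUFC2, NDUFS3, NDUFS7 and NDUFS8 are among those with an overlap, as are TIMMDC1, ACAD9, ESRRA, GABPB1, YY1, ATP5MC2 and MRPL47. MT-ND4 and MT-ND4L overlap each other on the same strand, and how their shared reads were assigned was not tested. Of 63 pseudogene rows named for members, 3 had more than 10 counts in a library, with at most 76 (NDUFV2P1), so few reads were assigned to them.

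Across processing settings the share of subunits that were lower exceeded that of all genes in each fit. With library size scaling, under which the median over all genes was −0.11, 25 subunits fell and 0 rose (median −0.34). These 25 were 65.8% of the subunits, where 25.2% of all genes were lower, so small changes are relative to the scaling.

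**Figure D4:**
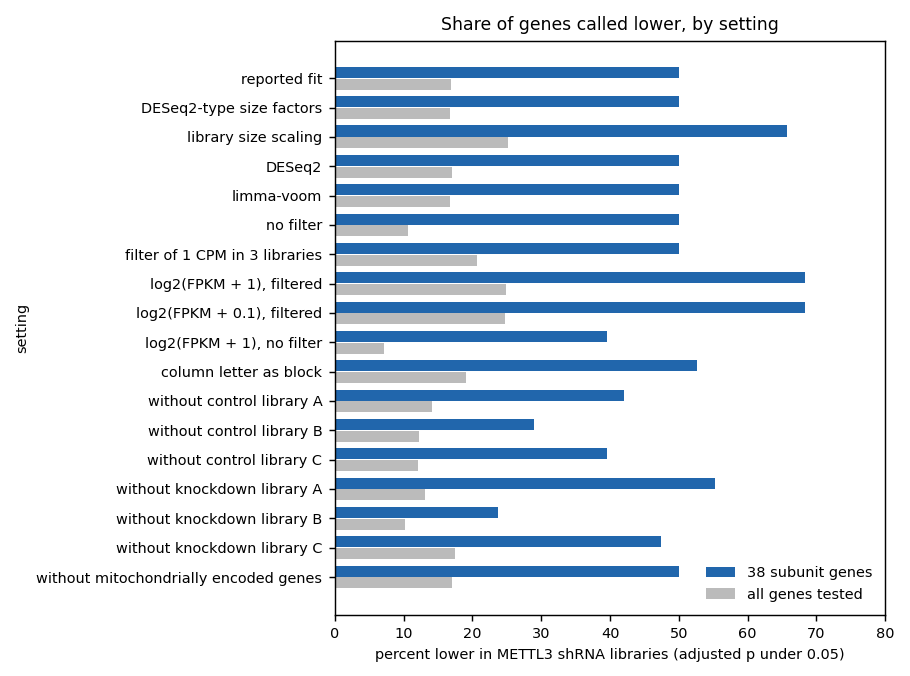
Percent of the 38 subunit genes (blue) and of all genes tested (grey) that were lower in METTL3 shRNA libraries at an adjusted p under 0.05 (x axis), in the reported fit and 17 alternatives (y axis). The subunit share runs from 23.7% without knockdown B to 68.4% with filtered FPKM values and lies above that of all genes in each.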

How the data were processed

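Per the labels' protocols, ribosomal RNA was removed from total RNA and paired reads were obtained on a DNBSEQ instrument. STAR 2.7.10b, Salmon and GRCh38 appear in the submitters' processing notes with no role stated, and the annotation release and strand setting were not given in the sources used here. The authors deposited whole-number counts, which could be rounded estimates, and FPKM values, each for 61860 genes. The letters A to C in the column names could not be linked to replicate numbers in the labels.

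Counts were tested with edgeR 4.0.16 in R 4.3.3 (filterByExpr, TMM, quasi-likelihood test, Benjamini-Hochberg adjustment over 18740 genes at 0.05). SE came from the F statistic. The procedure was also run on simulated counts drawn separately for each gene. A shift shared by many genes of a library was not simulated. Within groups, no 2 libraries matched within counting error (ratio of chi-square to its degrees of freedom 15.2 to 57.3).

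The 17 alternatives were DESeq2-type size factors, library size scaling, DESeq2 1.42.0, limma-voom (limma 3.58.1), no filter, a 1 CPM minimum in 3 libraries, limma on log2-transformed FPKM with a pseudocount of 1 or 0.1 (genes at 0.5 FPKM or more in 3 libraries), the pseudocount of 1 without that filter, the column letter as a block, each library left out, and mitochondrially encoded genes left out (added later).

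Members and lists were chosen with earlier results of these data known. One member, counted in the totals, is not reported here by name or value. The other members could be named, and of other lists METTL3, the MT-ND genes, NDUFA4L2 and members past the threshold. Other list members and divergent partners named were chosen after their values were seen. Positions and transcript features came from GENCODE 29 (GRCh38), in which 58308 identifiers were found.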

Additional observations from a re-analysis of the deposited data

How the results depend on the processing

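Over 17 alternatives, 709 of 782 values for single members stayed on their side of the threshold, 43 lost the call and 30 gained it. The sign changed in 34 values of 11 members, 0 of which had passed in either fit, and all 129 values for METTL3 and the MT-ND genes held. The number of subunits that rose was 0 with library size scaling and in all fits on FPKM. Their median was −0.34 with library size scaling and log2(FPKM + 0.1), and −0.33 with log2(FPKM + 1), filtered or not. The assembly factor median was −0.25 in all 3 FPKM fits, and 1 factor fell without the FPKM filter, where 7.16% of all genes did. Leaving out 1 library gave 9 to 21 subunits lower, 0 to 1 higher and medians from −0.28 to −0.16, with 2 to 4 assembly factors lower (medians −0.22 to −0.05). In those fits 10.2% to 17.4% of all genes were lower. Filtered FPKM gave 26 subunits lower (68.4%, where 24.7% to 24.8% of all genes were lower). The median of the other assembly factors changed sign with library size scaling (−0.06), FPKM (−0.09 with log2(FPKM + 1), −0.10 with log2(FPKM + 0.1)) and without knockdown A (−0.02, in a range of −0.02 to 0.09 when 1 library was left out). The cause of these shifts was not tested. Libraries with the same letter did not all deviate together (correlations of 0.04, −0.08 and 0.28), so the letters were not taken as pairs. With the letter as a replicate block, 20 subunits and 4 assembly factors fell (medians −0.23 and −0.13) and 1 subunit rose. Of all genes in that fit 19.0% were lower. The lowest count behind any member in a library was 434, in NDUFAF5.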
